A study of Mus musculus with 1 sample.

Results

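The genes described here are the 4 Notch receptors of the mouse (Notch1, Notch2, Notch3 and Notch4), 4 of their ligands (Jag1, Jag2, Dll1 and Dll4) and 2 repressors that the pathway switches on (Hes1 and Hey1). They were chosen by name, and all 10 were measured, out of 18193 genes that the array's annotation ties to probe sets of a single symbol. A probe set is a group of short oligonucleotides on the array that is matched to a transcript. The 10 genes were read by 19 probe sets, and no probe set shared between genes carried the name of any of them. The sample was total RNA of ovarian surface epithelial cells, the simple mesothelial-type layer that covers the ovary, from wild-type mice aged 3 months. It was labelled with biotin and hybridised to an Affymetrix expression array. The labels do not say how many mice gave the RNA or how the cells were collected. The series was designed to compare 3 genotypes. Only the wild-type array was analysed here, so genotypes were not compared and the spread between animals is unknown.

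Notch proteins are receptors that are activated by ligands on the surface of a neighbouring cell. Binding lets an ADAM protease and then gamma-secretase cut the receptor, and the released intracellular domain joins the DNA-binding protein RBPJ and a Mastermind coactivator in the nucleus. Genes of the HES and HEY families, which encode basic helix-loop-helix repressors, are the classical targets of this complex. In the ovary the pathway is best known for signalling from oocytes and granulosa cells to neighbouring granulosa cells, and for the growth of vessels, where Dll4 and Notch4 mark endothelium.

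In this sample Notch1, Notch2, both Jagged ligands and both repressors were above the background of the array, as was Notch3 on a single probe set that is not specific to 1 transcript, while Notch4, Dll1 and Dll4 lay within background. Genes listed as markers of cells other than surface epithelium were also above the limit in part, as given below. Which cells they came from was not tested, so these levels are those of the preparation. A gene was counted as above background where its brightest probe set exceeded 46.5 in intensity (5.54 in log2 units). This limit is the 95th percentile over a background of 126 probe sets, which read keratin-associated proteins and the odour, pheromone and bitter taste receptor families, none of them with an expected role in ovary. By this rule 7 of the 10 genes were above background, against 62.8% of all 18193 genes, so the count of the group was close to that of all genes. Of the 19 probe sets 10 were above the limit, against 55.1% of all 34945 probe sets with a single symbol. With genes restricted to other organs as the background the limit was 248, and 3 of the 10 genes (Notch2, Jag1 and Hes1) and 40.6% of all genes passed it. The median level of the 10 genes was 6.90 on the log2 scale and that of all genes was 7.06. Intensities of different genes depend on the affinity of their probes, so they are set against the limit here and not against each other.

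**Figure D1:**
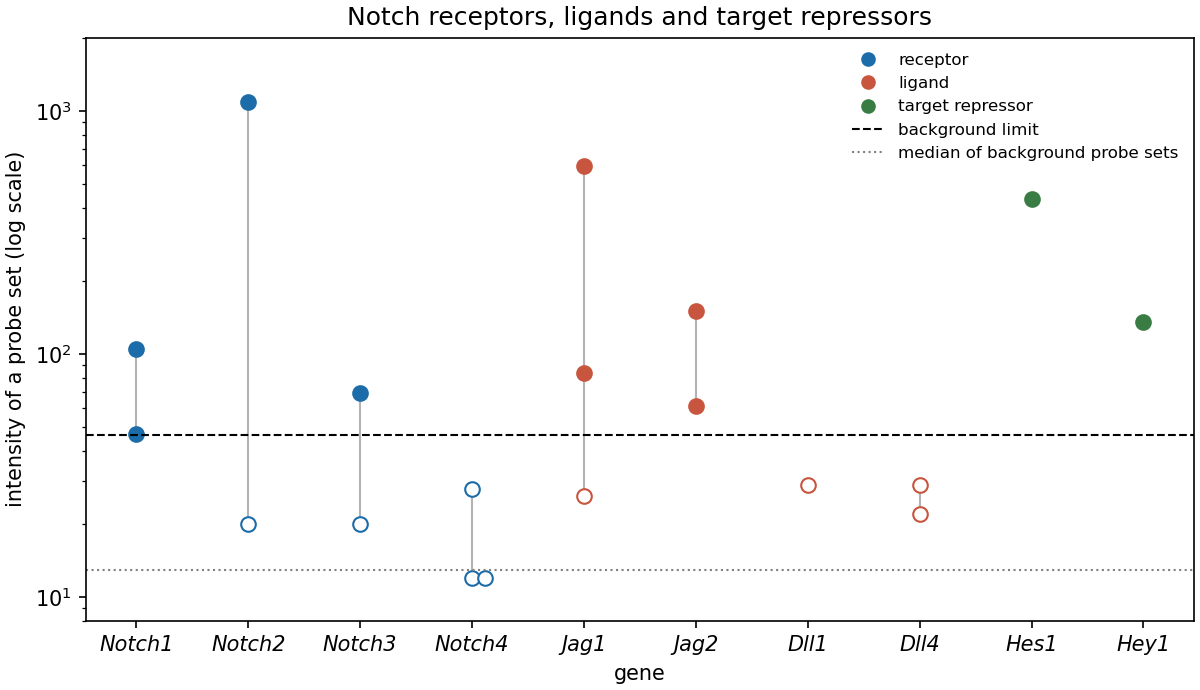
Intensity of each probe set (log scale) for the 10 genes, 1 point for each probe set; filled points are above the background limit of 46.5 (dashed), open points are below it, and the dotted line is the median of the background probe sets, 13. The Jagged ligands and both repressors have filled points, whereas all points of Notch4, Dll1 and Dll4 are open.

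Among the receptors, Notch2 was far above the limit on 1 probe set and within background on the other. Notch2 is a receptor of granulosa cells and of several other tissues. Its probe set 1455556_at had an intensity of 1086, which is 4.55 above the limit on the log2 scale, and none of the 126 background probe sets was as bright. Its other probe set, 1451889_at, had 20, a value that 27 of the background probe sets reached or exceeded. The probe sets of Notch2 thus lay on both sides of the limit and differed by 5.76 on the log2 scale. Among the 4695 genes with 2 probe sets, 4.56% had a difference as large. The files do not say which part of the transcript each probe set reads.

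Notch1, a receptor with roles in endothelium, blood and many epithelia, was above background on both of its probe sets. Probe set 1418634_at had 105, and 1 background probe set was as bright. Probe set 1418633_at had 47, at the limit itself, and 7 background probe sets were as bright. The deposited values are whole numbers, and a shift of 0.5 at the limit amounts to 0.0154 on the log2 scale. The margin of this probe set, 0.02 when rounded, is this same shift (47 against 46.5), so it does not exceed the rounding of the values.

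Notch3, a receptor best known from pericytes and vascular smooth muscle, was above background only on probe set 1421965_s_at, with an intensity of 69. The letter s in that identifier marks a probe set whose probes match more than a single transcript. The other probe set, 1421964_at, had 20. Relative to the limit this one lay at -1.22 in log2 units, so the place of Notch3 above background rested on the marked probe set alone. Notch4, the receptor of endothelial cells, had intensities of 12, 12 and 28 on its 3 probe sets. Every one was below the limit, and 11 background probe sets were as bright as the highest. Of genes with 3 probe sets 82.9% had at least 1 above the limit.

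The ligands divided by family. Jag1 and Jag2 encode Jagged proteins, which carry a cysteine-rich region that Delta-like proteins lack. Both were above background, on 4 of their 5 probe sets. Jag1 had intensities of 26, 84 and 592. The brightest, 1434070_at, was 3.67 above the limit on the log2 scale and brighter than all background probe sets, and the lowest, 1421105_at, was within background. Jag2 had 61 and 150 on its probe sets, and both passed the limit, by 0.39 and 1.69 on the log2 scale. None of the background probe sets was as bright as 150, and 5 were as bright as 61.

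Dll1 and Dll4 encode Delta-like ligands, which act in somite and neural development and, for Dll4, in the tips of growing vessels. None of their 3 probe sets was above the limit. Dll1 had a single probe set at 29, and Dll4 had 22 and 29. All 3 values were above the background median of 13, and 11 background probe sets were as bright as 29. Relative to the limit the highest of them lay at -0.68 in log2 units. When the 90th percentile of these background probe sets, 25.5, was the limit, Dll1, Dll4 and Notch4 passed it, by 0.19, 0.19 and 0.13. A transcript at a level below the limit cannot be told from an absent one on this array. Of genes with 1 probe set, as Dll1, 47.3% were above the limit, and of genes with 2, as Dll4, 71.8% were. The difference between the ligand families was not tested, since it rests on 1 array and on 4 genes.

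Both target repressors were above background. Hes1, which represses differentiation genes in many progenitor cells, had an intensity of 435 on its single probe set, 1418102_at. This is 3.23 above the limit on the log2 scale. Hey1, a repressor known from heart and vessel development, had 135 on its single probe set, 1415999_at, or 1.54 above the limit. No background probe set was as bright as either. Neither gene has a further probe set in the table that could be set beside these values. Hes1 is also switched on by signals other than Notch in some cells, and an expression level does not tell which signal acted.

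Probe sets of a gene often disagreed. Of the 7 genes with several probe sets 3 (Notch2, Notch3 and Jag1) had values on both sides of the limit, against 46.7% of all 9010 genes with several probe sets. Notch1 and Jag2 lay wholly above it, and Notch4 and Dll4 wholly below. The SD between probe sets on the log2 scale was 4.07 for Notch2, 2.28 for Jag1, 1.26 for Notch3, 0.92 for Jag2, 0.82 for Notch1, 0.71 for Notch4 and 0.28 for Dll4. The median of this SD over all genes with several probe sets was 1.39. It is a spread between probes and not an error between animals.

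The machinery that cuts, modifies and transmits the Notch signal was above background almost throughout. Of 66 measured genes for proteases, glycosylation, trafficking and nuclear factors 63 passed the limit, and over all 95 other pathway genes measured 81, or 85.3%, did. The share over all named genes was the 62.8% given above. That share rises with the number of probe sets, from 47.3% of genes with 1 to 71.8% with 2 and 82.9% with 3. Some of the pathway genes have more, as Dnm2 with 7 and Epn2 with 6, and the comparison was not matched for this number. By the lowest probe set of each gene 51 of the 95 passed, against 39.7% of all genes. The median level of the 95 genes was 8.37 on the log2 scale. Many of these genes also serve other pathways, so their presence is not particular to Notch signalling.

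All 5 measured subunits of gamma-secretase, the membrane protease that releases the intracellular domain, were above the limit. Psenen, a small subunit needed for its assembly, had 3133. Psen2, a catalytic presenilin, had 77 and 682, and Ncstn, the nicastrin subunit, had 22 and 161. Aph1a and Aph1b, scaffold subunits, were above the limit on all 5 of their probe sets. Adam10, the main protease for the first cut, had intensities of 35, 44, 320 and 2905. Adam17, a related protease, had 49, 316 and 820, and Furin, which cleaves the receptor during maturation, had 456.

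Of the glycosylation enzymes 9 of 10 were above the limit. Pofut1, which adds the O-fucose that receptors need for ligand binding, had 45, 51 and 547. The Fringe enzymes extend this fucose and shift the preference of a receptor between Delta-like and Jagged ligands. Lfng, or lunatic fringe, had 22 and 234, Rfng, or radical fringe, had 66 and 267, and Mfng, or manic fringe, had 31, below the limit. Of the ligases that promote ligand endocytosis, Mib1 had 45, 58 and 1047 and Mib2 had 257. Neurl1a was above the limit on 2 of 6 probe sets, the brightest at 80, and Neurl1b had 72.

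All 13 genes of receptor trafficking and turnover were above the limit. Numb, an endocytic inhibitor of Notch, had 60 and 1258, and Numbl, its relative, had 401. Itch, a ubiquitin ligase that acts on Notch, had 837 on its brightest probe set and between 13 and 19 on the other 3. Fbxw7, which targets the intracellular domain for degradation, had 187 and 285.

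In the nucleus, Rbpj, the DNA-binding partner of the intracellular domain, was above the limit on all 3 probe sets, with 186, 424 and 1052. Of its coactivators, Maml1 had 13, 249 and 1110, whereas Maml2 had 12 on its single probe set. Rbpjl, a tissue-restricted relative of Rbpj, had 21 and 26, both below the limit. All 17 measured genes of the corepressor list passed the limit. The list held Kyat1, a kynurenine aminotransferase and no corepressor, by mistake, and without it 16 of 16 passed, as did 62 of the 65 genes of the machinery and 80 of the 94 other pathway genes. Spen, which bridges Rbpj to histone deacetylases, had 212, and Tle2, a Groucho-type corepressor that HES proteins recruit, was near the limit at 61.

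**Figure D2:**
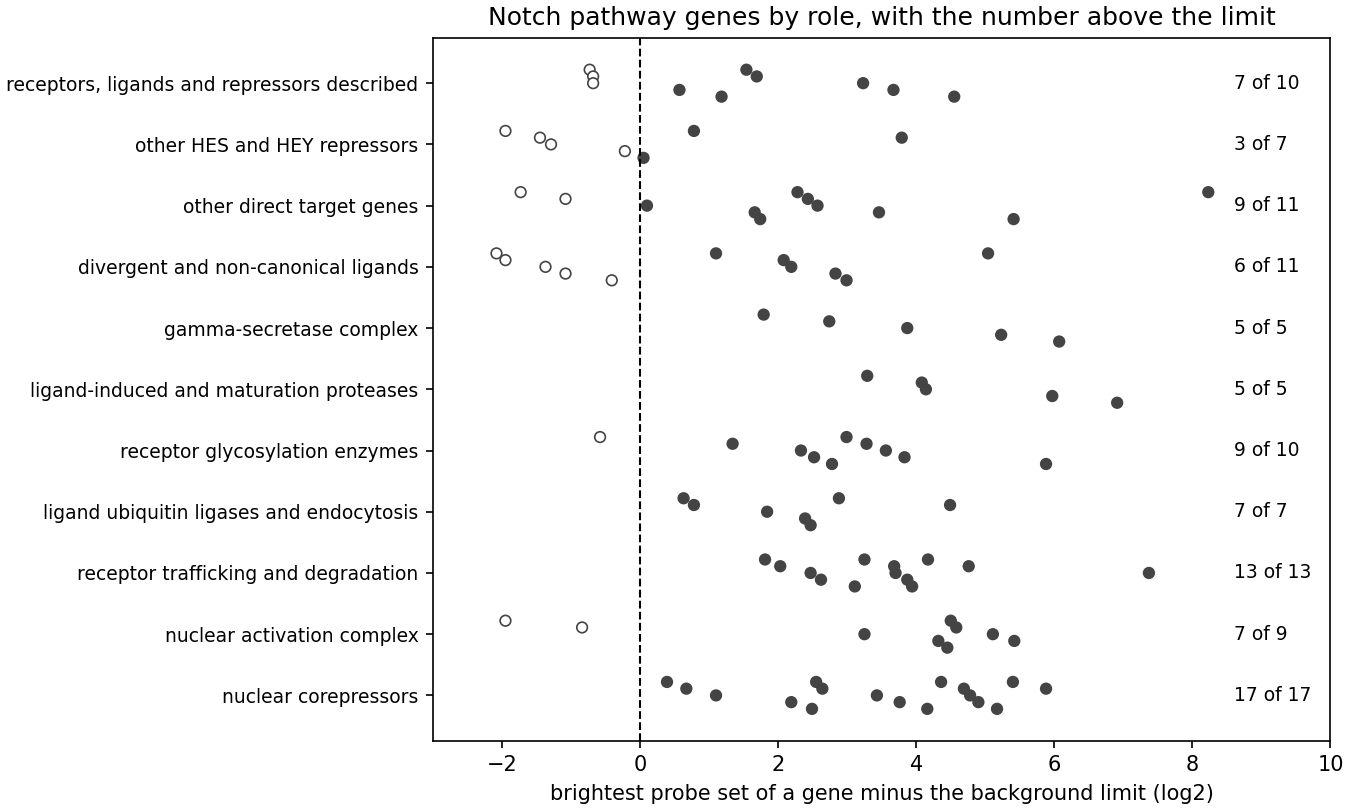
Brightest probe set of each measured gene minus the background limit (log2), by role; filled points are above the limit, open points are at or below it, the dashed line is the limit, and the counts give genes above the limit of those measured. All 5 gamma-secretase subunits and all 13 trafficking genes are to the right of the line, whereas 4 of the 7 other HES and HEY repressors are to its left. The lists were not matched for the number of probe sets per gene.

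The other members of the HES and HEY families were divided, with 3 of 7 above the limit, against 62.8% of all genes. Hes2, Hes3, Hes7 and Hey2 have 1 probe set each, and of all genes with 1 probe set 47.3% passed. Hes6, which can oppose Hes1 and is not a classical target of Notch, had 335 and 643. Hes5, a target in neural progenitors, had 13 and 80, and Hes7, of the segmentation clock, had 48, at the limit. Hes2, Hes3 and Hey2 had 12, 19 and 17, and Heyl had 24, 39 and 40, all below the limit. Among the classical target repressors measured, those with a margin above the limit were thus Hes1, Hey1 and, on 1 of 2 probe sets, Hes5.

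Of 11 further genes known as targets in at least some cell types 9 were above the limit, against 62.8% of all genes. Nrarp, a feedback inhibitor that Notch induces in many tissues, had 27 and 50, the brighter of them only 0.10 above the limit in log2 units. Ptcra and Il2ra, targets in T cells, had 14 and at most 22. Dtx1, a ubiquitin ligase of lymphocytes and neural cells, had 22 and 277, Sox9 had 18, 92 and 155, and Myc and Ccnd1, which answer to many signals, had 511 and at most 226. The place of Tgm2, a protein-crosslinking enzyme, among Notch targets is less secure, and without it 8 of 10 passed. Of 11 divergent or non-canonical ligands 6 were above the limit, which is near the share of all genes. Thbs2, a matricellular protein, had 580, 984 and 1532, and Mfap2 and Mfap5, microfibril proteins that bind Jagged or Notch, were above the limit on all 4 of their probe sets. Dll3, a Delta-like protein that inhibits signalling, had 18. Dlk1, a divergent ligand, had 14 and 196, and Ccn3 had 14 and 35. Dner, Cntn1 and Cntn6, ligands of neural tissue, had at most 12, 22 and 11.

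Promoter sequence gave a further view of the genes. Windows of RefSeq (GRCm38.p6), cut to the 250 bases before an annotated start, were found for 8 of the 10 genes. Hes1 and Hey1 are named only. Windows were called high in CpG where the observed over expected CpG ratio was above 0.75 and the GC content above 55%, low where the ratio was below 0.48, and middle otherwise. A gene with several starts was given its highest class. Of 4945 named genes with a high window 85.2% were above the limit of intensity, of 4602 with a middle window 75.1%, and of 4905 with a low window 32.6%. Jag1, Jag2 and Notch2 had high windows, with ratios of 0.98, 1.14 and 1.06, and Notch4 had a low one, with a ratio of 0.23. Dll1 departed from this order, since 1 of its 2 starts had a high window, at 0.82, with an intensity of 29. Notch1, Notch3 and Dll4 were in the middle class, with ratios of 0.59, 0.60 and 0.56. Of these Dll4, at 29, was below the limit of intensity, and Notch1 and Notch3 were above it. The windows of Notch2, Jag1 and Notch4 are printed as examples of high and low windows, and those of Dll1 and Dll4 are not printed. They run 5′ to 3′ on the strand of the gene, with every CG in capitals. The windows of Notch2 and Jag1 hold 34 and 20 CG pairs, and the stretch of Notch4 holds 4. The Notch4 stretch ends 9 bases early, where another annotated transcript begins. The intervals are chr3:98013288-98013537 on the plus strand for Notch2, chr2:137116521-137116770 on the minus strand for Jag1 and chr17:34564045-34564285 on the plus strand for Notch4.
Notch2: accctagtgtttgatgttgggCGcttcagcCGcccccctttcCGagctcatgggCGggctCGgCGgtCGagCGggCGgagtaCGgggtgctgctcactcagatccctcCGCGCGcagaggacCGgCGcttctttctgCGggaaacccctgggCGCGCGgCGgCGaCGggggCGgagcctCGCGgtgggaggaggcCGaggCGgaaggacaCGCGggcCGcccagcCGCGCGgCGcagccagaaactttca
Jag1: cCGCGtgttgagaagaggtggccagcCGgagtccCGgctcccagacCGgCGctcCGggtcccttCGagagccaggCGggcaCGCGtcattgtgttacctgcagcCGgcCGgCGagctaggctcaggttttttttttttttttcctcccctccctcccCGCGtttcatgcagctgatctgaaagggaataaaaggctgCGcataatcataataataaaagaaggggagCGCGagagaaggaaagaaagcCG
Notch4: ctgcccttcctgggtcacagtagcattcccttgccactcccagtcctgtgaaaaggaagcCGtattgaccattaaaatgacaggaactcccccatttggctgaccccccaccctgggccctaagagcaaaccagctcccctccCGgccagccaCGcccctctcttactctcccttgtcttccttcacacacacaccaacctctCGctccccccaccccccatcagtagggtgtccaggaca

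**Figure D3:**
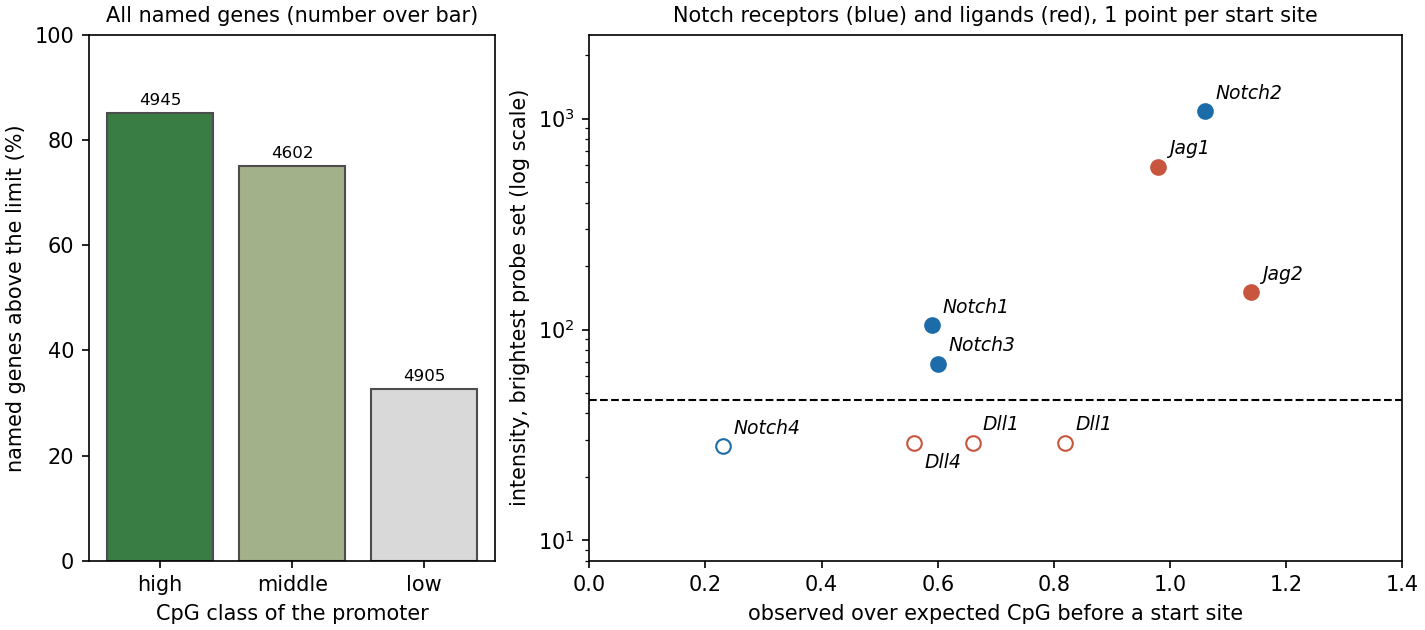
Left, percentage of all named genes above the background limit by CpG class of the promoter window, with the number of genes over each bar. Right, intensity of the brightest probe set (log scale) against the observed over expected CpG ratio for receptors (blue) and ligands (red), 1 point for each annotated start, filled above the limit of 46.5 (dashed); Notch4 is alone below a ratio of 0.48, and Dll1 is below the limit at ratios of 0.66 and 0.82.

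The core letters of the RBPJ site, GTGGGAA on either strand, were searched in the same windows. They were in 5.42% of all 32851 windows, and 0.161% held at least 2 matches. None of the 9 windows of the receptors and ligands held a match. Among the 5 other HES and HEY genes with windows, Hes5 held 2 matches and Hey2 and Hes7 held 1 each. These are printed with 10 bases on each side, since they belong to the repressor family whose levels are described above, with the match in capitals. The intervals are chr4:154960687-154960713 and chr4:154960830-154960856 (plus strand) for Hes5, chr10:30842974-30843000 (minus strand) for Hey2 and chr11:69120263-69120289 (plus strand) for Hes7. Other annotated transcripts of Hes5 and Hes7 begin farther upstream.
Hes5 match 1: ggcgagcgcgTTCCCACagcccggaca
Hes5 match 2: gccgccgagtGTGGGAAcggccgcggc
Hey2: cgcggtggcaTTCCCACgcctctgcca
Hes7: ctcccctcacTTCCCACatttggggct

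The genes with these matches were not all above background. Hes5, with 2 matches, had 13 and 80, Hes7 had 48, and Hey2 had 17. Of 930 named genes with the letters in a window 64.4% were above the limit of intensity, against 64.1% of all 14452 named genes with a window. A match of letters is a description of the sequence and no evidence of binding.

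The labels do not say whether cells other than surface epithelium were in the sample. A gene listed as a marker of another cell type may also be read from surface epithelial cells, which was not tested. Levels therefore cannot be assigned to a cell type, and fewer cells of a type cannot be told apart from less RNA per cell. All 12 markers of surface epithelium, the cells named in the label, were above the limit, against 62.8% of all genes. Fibroblast and granulosa cell markers passed in 7 of 8 cases each, so these counts alone do not identify the cells. Krt7, Krt8 and Krt18, keratins of simple epithelia, had 8204, at least 3172 and 3377. Endothelial markers, the cells in which Notch4 and Dll4 are best known, were above the limit in 4 of 14 cases. The junction genes Pecam1 and Cdh5, which define endothelium, were within background at 14 and at most 23, as was Tek, an angiopoietin receptor, at 21. The 4 above the limit were Kdr at 1813, Esam at 1785, Robo4 at 269 and Eng at 192.

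Of 12 pericyte and smooth muscle markers other than Notch3, 9 were above the limit. Rgs5, a marker of pericytes, had at most 16, whereas Cspg4 and Pdgfrb, found on pericytes and other mesenchymal cells, had 95 and 120 and 75 and 209. The contractile genes of smooth muscle in the same list, named after their values were seen, were far above the limit on their brightest probe sets. These were Acta2 at 23141, Tagln at 22357, Des at 4105, Cnn1 at 3985 and Myh11 at 764. The rest of the list was Mcam at 537, Kcnj8 at 121, and Abcc9 and Higd1b, below the limit at up to 18 and at 11. Of 8 measured fibroblast markers 7 were above it, as Col1a1 with 6440 and 8290, Col1a2 with up to 29972, and Pdgfra with 916 on 1 of 3 probe sets. Granulosa cell markers, the cells in which Notch2 and its ligands act in follicles, were above it in 7 of 8 cases. Fshr, the receptor of granulosa cells for follicle-stimulating hormone, had 34, below the limit, Amh, a hormone of growing follicles, had 58, and Inha, an inhibin subunit, had 1438. Whether such cells were present, and their part in the levels of Notch2, Notch3, Jag1, Hes1 and Hey1, was not tested.

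The other lists were as follows. None of 10 oocyte markers was above the limit, as Zp1, Zp2 and Zp3, proteins of the egg coat, with 18, 16 and 20. Theca and luteal markers were above it in 3 of 4 measured cases, with Cyp17a1 at 18, Cyp11a1 at up to 381 and Star between 947 and 1229. Of 8 macrophage markers 6 were, as Csf1r, the receptor for macrophage growth factors, at up to 527, Cd68 at 334 and Adgre1 at 47. Of 8 measured lymphocyte markers 3 were, namely Ptprc at 70, Cd8a at 67 and Cd4 at 62, while Cd3e, Cd3d and Cd3g had 46, 39 and 10. Of 5 oviduct and ciliated cell markers Pax8 alone was, at 107, and Ovgp1 and Foxj1 had 35 and 20.

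**Figure D4:**
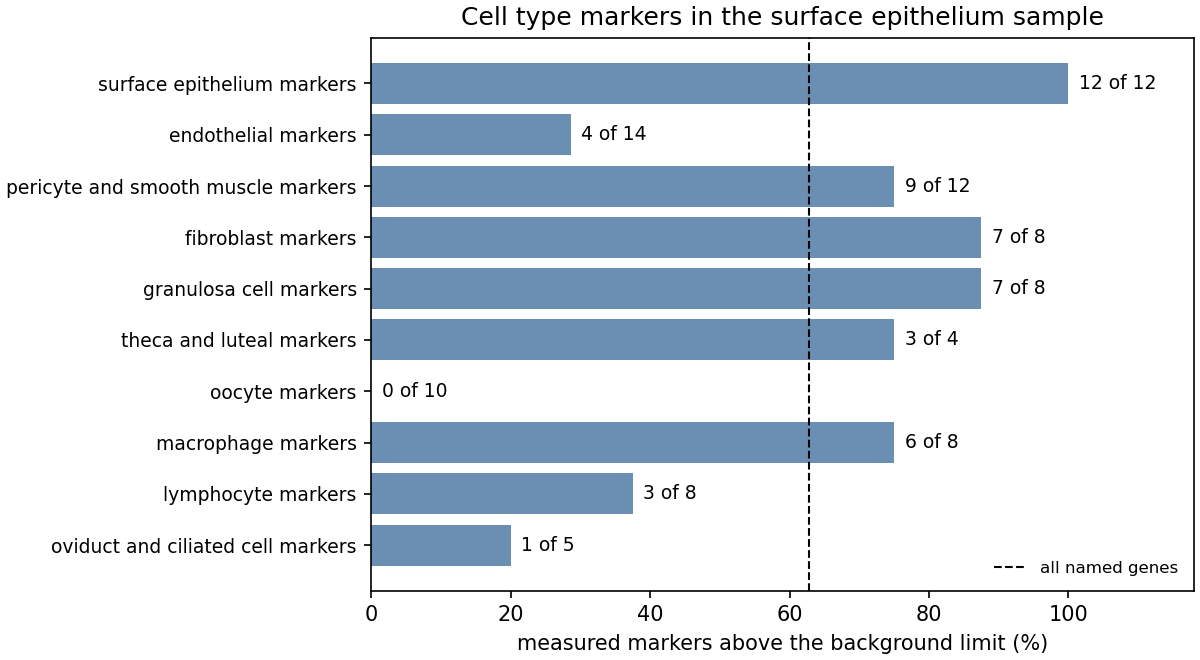
Percentage of measured markers above the background limit for each cell type list, with the counts beside the bars; the dashed line is the percentage of all named genes, 62.8%. The bar of endothelial markers, 4 of 14, is left of the line, and that of surface epithelium, 12 of 12, reaches the full length.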

How the data were processed

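Total RNA of the wild-type sample was measured on 1 Affymetrix array. The deposited table holds 45101 probe sets, each with a linear intensity. Per the submitters' processing notes, the tools were affy and RMA, a background correction and normalization that usually gives log2 values. Their versions, the arrays normalized together and the step to whole linear numbers were not given in the sources used here. Differences between low intensities are compressed by RMA.

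Intensities were put on the log2 scale. The platform annotation gave 1 symbol to 34945 probe sets, several to 932 and none to 9160, and 64 were controls. The symbols of all 19 probe sets of the genes described matched the RefSeq gene table through their gene numbers. A gene's level was its brightest probe set. With 1 array no test was made, and the precision of every level is unknown. Calls were checked on simulated data, with genes set above the limit beforehand. This checked the code only and gives no rate of wrong calls near the limit. In the real data 7 of the 126 background probe sets were above the limit. The genes and lists were chosen with earlier results of these data known. All members were named with every probe set. Of the other pathway genes, those below the limit or within 0.5 (log2) of it were all named. Of each cell type list the first 3 measured genes were named, with any above the limit where under 50% were. The pericyte and smooth muscle list was named in full, after its values were seen. Listed genes without a probe set of their own were not analysed here. Alternatives changed the limit, the background set, the probe sets used or the choice of probe set. Tables were made with pandas 2.3.3 and NumPy 2.4.6 under Python 3.11.15, and figures with matplotlib 3.10.9.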

Additional observations from a re-analysis of the deposited data

How the results depend on the processing

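Hes1 was the only gene of the 10 to keep its side of the limit under all 9 alternatives. It has 1 unmarked probe set, so the alternatives on the choice of probe set could not move it from 3.23. Notch2 and Jag1 changed side in 1 alternative each, the lowest probe set. With genes restricted to other organs as background Hes1 lay at 0.81, below Notch2 at 2.13 and Jag1 at 1.25. Over 25 values of the main counts 20 stayed within 1.5 times. Counts of 7 of 10 members and 81 of 95 other pathway genes cannot rise by that factor. For these 2 counts only a fall could pass it, so the tally is no measure of stability. At a 90th percentile limit (25.5), Notch4, Dll1 and Dll4 lay above it by 0.13, 0.19 and 0.19 on the log2 scale. All 10 genes were then above it, against 73.2% of all genes. With odour and pheromone receptors alone as background the limit was 29.3, and Notch4, Dll1 and Dll4 lay just below it, at -0.07, -0.01 and -0.01. There 7 of 10 genes were above the limit, against 70.5% of all genes. At a 99th percentile limit (84.8), 6 of 10 genes were above it, against 55.3% of all genes, and Notch3 lay at -0.30. Of the 19 probe sets 6 were above that limit. The share of all probe sets was computed at the main limit only. With genes restricted to other organs as background (limit 248), 3 of 10 genes were above it, against 40.6% of all genes. There 3 of 19 probe sets passed, and Notch1, Notch3, Jag2 and Hey1 lay at -1.24, -1.85, -0.73 and -0.88. The background of genes restricted to other organs holds Mbp. Without Mbp, an alternative chosen after seeing the data, the limit was 63.7. Then 7 of 10 genes were above the limit, against 58.7% of all genes. Taking each gene by its lowest probe set, 4 of 10 members and 51 of the 95 other pathway genes were above the limit. The share of all genes was then 39.7%, close to that of the members. By that choice Notch2, Notch3 and Jag1 lay at -1.22, -1.22 and -0.84. Notch3 lay at -0.32 with the median probe set and at -1.22 with unmarked probe sets. No paired analysis was possible because there is 1 sample. An array has no read depth, and signal near the limit cannot be told from background.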
